A study of Mus musculus with 8 samples.

Results

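The genes described here are 41 genes of DNA replication and S phase, the stage of the cell cycle in which a cell copies its genome. They were taken by symbol from a list of S phase genes, and all 41 were found among the 50462 gene identifiers of the table. Their RNA was measured by sequencing medial knee cartilage from 8 wild-type male C57BL/6J mice. The 4 naive mice had no surgery and were 11 weeks old (day 0). The 4 DMM mice were 17 weeks old and had undergone destabilisation of the medial meniscus in the left knee 42 days earlier, in which cutting a ligament of the meniscus loads the joint abnormally and leads to post-traumatic osteoarthritis. No sham-operated mice were analysed here, so in all that follows the operation cannot be told apart from the greater age of the DMM mice.

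Before S phase, the origin recognition complex and its partners place an inactive helicase on DNA, and cyclin-dependent kinases then switch it on. Primase and the DNA polymerases copy each strand behind a sliding clamp, ribonucleotide reductase and thymidylate synthase supply nucleotides, and chaperones rebuild chromatin on the new strands. Many of these genes are transcribed late in G1 by E2F factors once the retinoblastoma protein lets go of them. Mature articular chondrocytes divide rarely, whereas precursors of blood cells in bone marrow divide often.

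Letters that E2F factors are known to read lay close to the start of several of these genes. The search covered the 250 bases before and 50 bases after each start in the mouse GRCm38.p6 annotation of RefSeq, on both strands, for TTTCCCGC, TTTGGCGC and TTTCGCGC, and a window was counted once however many matches it held. RefSeq windows were matched for 31 of the 41 S phase genes, and 12 of their 34 windows (35.3%) held at least 1 match, against 606 of 32851 windows (1.84%) over all genes. Stretches of 30 bases around the letters are shown for 7 of the genes whose letters lie before the start, each read 5′ to 3′ on the strand of its gene with the E2F letters, or their reverse complement, in capitals.
Mcm5 (chr8:75109345-75109374, plus strand): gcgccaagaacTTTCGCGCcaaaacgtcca
Mcm6 (chr1:128359734-128359763, minus strand): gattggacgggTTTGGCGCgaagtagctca
Cdc6 (chr11:98908002-98908031, plus strand): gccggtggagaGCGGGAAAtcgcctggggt
Pola1 (chrX:93632275-93632304, minus strand): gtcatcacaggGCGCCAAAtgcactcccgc
Cdca7 (chr2:72476137-72476166, plus strand): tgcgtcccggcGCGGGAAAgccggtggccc
Hells (chr19:38930917-38930946, plus strand): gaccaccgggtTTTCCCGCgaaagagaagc
Dtl (chr1:191575545-191575574, minus strand): caatcagaaagcgtgacgtcagTTTGGCGC
The capitals began 153 bases before the start of Mcm5, 47 before that of Mcm6, 138 before that of Cdc6, 138 before that of Pola1, 71 before that of Cdca7, 62 before that of Hells and 8 before that of Dtl. In Mcm5 a TTTGGCGC match read on the opposite strand overlapped the match shown, and in Mcm6 the window held 3 matches, of which a TTTGGCGC and a TTTCGCGC overlapped. A match of letters is a description of the sequence and does not show that a factor binds there.

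All 41 S phase genes had a lower fitted level in DMM than in naive cartilage, and 30 of them (73.2%) were differentially expressed. A gene was called differentially expressed at an adjusted P of 0.05 or less (DESeq2, adjusted over all 18707 genes tested) together with a change of 1.5 fold or more. Of all genes tested, 5.63% were called lower and 7.38% higher, and no S phase gene was called higher. For 36 of the 41 genes every DMM mouse lay below every naive mouse, against 9.86% of all genes tested. The 30 called genes fell by between 1.5 and 1.88 fold, the largest change being that of Cdc6. The median log2 fold change over the 41 genes was -0.63, against -0.01 over all genes tested, and 51.4% of all genes tested had a log2 fold change below 0. In bulk tissue, fewer cells of a type and less RNA per cell cannot be told apart.

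The 11 genes that were not called were of 2 kinds. For 8 of them (Gins2, Pold3, Rfc2, Tyms, Exo1, Brip1, Usp1 and Wdr76) the adjusted P was 0.05 or less but the change was under 1.5 fold. For Dscc1, Casp8ap2 and Ubr7 the adjusted P was above 0.05, with 95% intervals of the log2 fold change, not adjusted for multiple testing, of -0.67 to -0.01, -0.55 to -0.07 and -0.53 to -0.05. The threshold of 1.5 fold passed through the range of the 41 genes, and 4 called genes (Nasp, Hells, Atad2 and Blm) lay just past it at a log2 fold change of -0.59. Without that threshold 38 of the 41 genes were lower, against 10.5% of all genes tested.

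**Figure D1:**
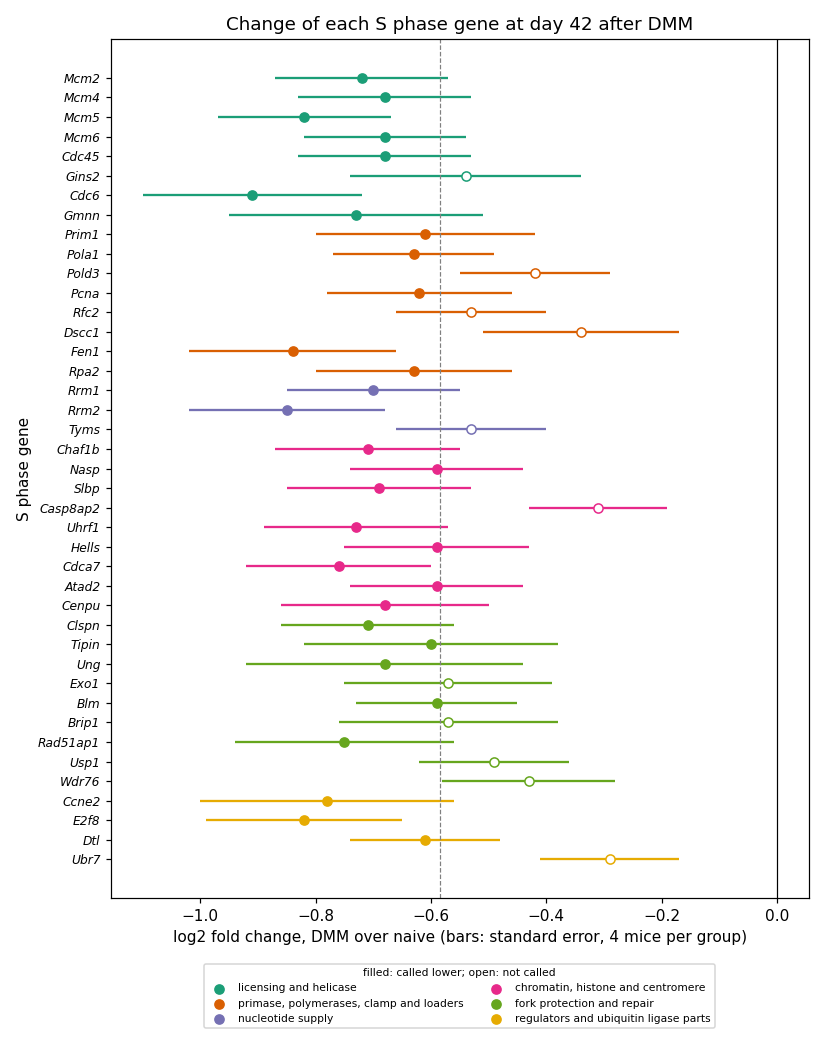
Log2 fold change of the 41 S phase genes, DMM over naive (horizontal axis, bars 1 standard error from DESeq2, 4 mice per group), coloured by role, with filled points for genes called lower, open points for genes not called and a dashed line at 1.5 fold. All 41 points lie below 0, from -0.91 for Cdc6 to -0.29 for Ubr7.

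Values below are estimated counts divided by the DESeq2 size factor of the library (normalised counts), given for naive mice 1 to 4 and DMM mice 1 to 4 in that order. Log2 fold changes are DMM over naive, given ± their standard error. Levels are compared between genes only as normalised counts per kilobase of the longest coding transcript. On that scale the S phase genes spanned 31.3 to 1218.8 in naive cartilage, with a median of 209, and 21.2 to 795.2 in DMM cartilage, with a median of 134.

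Among the genes that license origins and unwind DNA, 7 of 8 were called lower, with a median log2 fold change of -0.70. Mcm2, Mcm4, Mcm5 and Mcm6 encode subunits of the replicative helicase. Mcm5, which had the smallest adjusted P of the 41 genes, measured 1815, 2036, 1650.3 and 1424 in naive and 795, 976, 1145 and 1009 in DMM cartilage. Every naive mouse lay above every DMM mouse, and the difference was 1.76 fold (log2 -0.82 ± 0.15, adjusted P = 2.56e-06). Mcm6 measured 2916, 3138, 2554 and 2259 in naive and 1452, 1628, 2025 and 1683 in DMM cartilage, a fall of 1.6 fold (log2 -0.68 ± 0.14, adjusted P = 5.72e-05). For Mcm2 the values were 2261, 2489, 1866 and 1642 in naive and 1167, 1215, 1471 and 1158 in DMM cartilage, a fall of 1.65 fold (log2 -0.72 ± 0.15, adjusted P = 5.78e-05). In both genes naive mouse 4 was the lowest of the naive mice and DMM mouse 3 the highest of the DMM mice, and the groups did not overlap.

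The rest of the licensing group was called lower too, except Gins2. Mcm4 fell by 1.6 fold (adjusted P = 0.000195) and Cdc45, which joins the helicase when it is activated, by 1.6 fold (adjusted P = 0.000135). Cdc6, which helps to load the helicase onto origins, had the largest change of the 41 genes, from 761 ± 159 to 404 ± 92 normalised counts (mean ± SD, n = 4 each; 1.88 fold, adjusted P = 6.58e-05). Gmnn encodes geminin, an inhibitor of licensing, and it was lower as well (1.66 fold, adjusted P = 0.00836). Gins2, a part of the GINS complex that completes the active helicase, changed by log2 -0.54 ± 0.20 (adjusted P = 0.0416) and its groups overlapped. Of the 31-base words in its transcripts, 66.2% also occur in transcripts of Gse1, which lies on the opposite strand at the same place, so its estimate is uncertain.

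Of the 8 genes for primase, polymerases, the clamp, its loaders and Okazaki fragment processing, 5 were called lower, with a median log2 fold change of -0.61. Fen1 encodes the nuclease that trims flaps between Okazaki fragments. It measured 1241, 1381, 966 and 907 in naive and 497, 566, 757 and 687 in DMM cartilage (1.79 fold lower, log2 -0.84 ± 0.18, adjusted P = 6.96e-05). All 4 naive mice were above all 4 DMM mice, but 79.6% of the words of Fen1 are shared with other genes, mostly Gm10143 on the opposite strand, and the estimates of both genes may not be separable. Pola1, the catalytic subunit of polymerase alpha, measured 1338, 1201, 1160.2 and 1056 in naive and 649, 676, 871 and 882 in DMM cartilage (1.54 fold lower, log2 -0.63 ± 0.14, adjusted P = 0.000176). Rfc2, part of the complex that loads the clamp, measured 656, 694, 561 and 527 in naive and 406, 402, 446 and 438 in DMM cartilage (log2 -0.53 ± 0.13, adjusted P = 0.000482). The groups did not overlap for either gene, and the Rfc2 change of 1.44 fold was under the threshold.

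Pcna, the sliding clamp itself, had the highest level per kilobase of the S phase genes in both groups. It measured 1919, 2256, 1630.0 and 1595 in naive and 982, 1129, 1484 and 1234 in DMM cartilage (1.53 fold lower, log2 -0.62 ± 0.16, adjusted P = 0.00156). The groups did not overlap, and 23.3% of its words also occur in the pseudogene Pcna-ps2. Prim1, the catalytic subunit of primase, and Rpa2, which coats single-stranded DNA, fell by 1.52 and 1.55 fold (adjusted P = 0.0105 and 0.00288), and for Prim1 the groups overlapped. Pold3, a subunit of polymerase delta, changed by log2 -0.42 ± 0.13 (adjusted P = 0.0138), and Dscc1, part of an alternative clamp loader, by log2 -0.34 ± 0.17 (adjusted P = 0.148).

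All 3 genes of nucleotide supply were lower in every DMM mouse than in any naive mouse, and 2 of them were called. Rrm2 and Rrm1 are the small and large subunits of ribonucleotide reductase, which makes deoxyribonucleotides. Rrm2 measured 2513, 2448, 1838 and 1698 in naive and 980.2, 1063, 1432 and 1237 in DMM cartilage (1.8 fold lower, log2 -0.85 ± 0.17, adjusted P = 2.03e-05). Rrm1 measured 3071, 3044, 2659.6 and 2329 in naive and 1387, 1508, 2095 and 1832 in DMM cartilage (1.63 fold lower, log2 -0.70 ± 0.15, adjusted P = 0.000126). Tyms encodes thymidylate synthase, the source of thymidylate. It measured 644, 688, 578 and 553 in naive and 394, 369.8, 462 and 476 in DMM cartilage, and its change of 1.45 fold (log2 -0.53 ± 0.13, adjusted P = 0.000825) was under the threshold.

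Among the genes for chromatin, histones and the centromere, 8 of 9 were called lower, with a median log2 fold change of -0.68, and the groups did not overlap for any of the 9. Uhrf1 brings the maintenance DNA methyltransferase to new strands, and Hells with its partner Cdca7 remodels chromatin so that methylation is kept. Cdca7 measured 828, 902, 684 and 656 in naive and 396, 398, 478 and 541 in DMM cartilage (1.69 fold lower, log2 -0.76 ± 0.16, adjusted P = 3.36e-05). Uhrf1 measured 2563, 2843, 2001 and 1779 in naive and 1294, 1350.2, 1608 and 1289 in DMM cartilage (1.66 fold lower, log2 -0.73 ± 0.16, adjusted P = 0.000132), and 24.2% of its words are shared with other genes. Hells fell by 1.51 fold (adjusted P = 0.00204), just past the threshold.

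Of the histone chaperones and histone mRNA factors, all but Casp8ap2 were called. Chaf1b, a subunit of the chromatin assembly factor that deposits histones behind the fork, measured 284, 246, 216 and 209 in naive and 128, 144, 163 and 149 in DMM cartilage (1.64 fold lower, log2 -0.71 ± 0.16, adjusted P = 0.000225). Nasp, a chaperone of histone H3, and Slbp, which binds the stem-loop of histone mRNAs, fell by 1.5 and 1.61 fold (adjusted P = 0.0016 and 0.000312). Atad2, a chromatin-bound ATPase, and Cenpu, a centromere protein, fell by 1.5 and 1.6 fold (adjusted P = 0.000935 and 0.00228). Casp8ap2, which takes part in the processing of histone mRNAs, stood at log2 -0.31 ± 0.12 (adjusted P = 0.0611).

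The genes that protect or repair the fork had the smallest share called, 5 of 9, with a median log2 fold change of -0.59. Clspn, the adaptor through which the checkpoint kinase Chk1 is activated, measured 1761, 1604, 1418 and 1175 in naive and 871, 797, 1028 and 939 in DMM cartilage (1.64 fold lower, log2 -0.71 ± 0.15, adjusted P = 3.69e-05). Blm, a helicase that resolves recombination intermediates, measured 681, 649, 551 and 570.3 in naive and 358, 388, 494 and 392 in DMM cartilage (1.5 fold lower, log2 -0.59 ± 0.14, adjusted P = 0.000471). For Rad51ap1, which acts in homologous recombination, the values were 350.0, 368, 259 and 257 in naive and 155, 156, 209 and 216 in DMM cartilage (1.68 fold lower, log2 -0.75 ± 0.19, adjusted P = 0.00103). The groups did not overlap for these 3 genes, and each DMM group peaked in mouse 3 or 4.

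Tipin, part of the fork protection complex, and Ung, the glycosylase that removes uracil from DNA, were also called (1.52 and 1.6 fold lower, adjusted P = 0.0302 and 0.0253). Exo1, an exonuclease of mismatch repair and recombination, had the lowest level per kilobase of the S phase genes. It measured 293, 271, 213 and 198 in naive and 134, 186, 171 and 169.7 in DMM cartilage (log2 -0.57 ± 0.18, adjusted P = 0.0124), with no overlap but a change of 1.48 fold, under the threshold. Usp1, which removes ubiquitin from the clamp, the helicase gene Brip1 and Wdr76 changed by 1.4, 1.48 and 1.35 fold (adjusted P = 0.00212, 0.018 and 0.0202), also under it.

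Of the 4 regulators and ubiquitin ligase parts, 3 were called lower and the groups overlapped for none. E2f8, an atypical E2F factor that represses its targets late in S phase, measured 2055, 2095, 1604 and 1316 in naive and 848, 935, 1194 and 1039.7 in DMM cartilage (1.76 fold lower, log2 -0.82 ± 0.17, adjusted P = 5.79e-05). Dtl, which marks the licensing factor Cdt1 for destruction at the clamp, measured 759, 741, 592 and 613 in naive and 425, 401, 472 and 477 in DMM cartilage (1.52 fold lower, log2 -0.61 ± 0.13, adjusted P = 8.25e-05). The cyclin E2 gene Ccne2, whose product drives entry into S phase, measured 709.7, 654, 491 and 448 in naive and 245, 261, 439 and 399.8 in DMM cartilage (1.71 fold lower, log2 -0.78 ± 0.22, adjusted P = 0.00465). DMM mice 3 and 4 came close to naive mouse 4 for Ccne2, and 15.6% of its words are shared with Ints8 on the opposite strand. Ubr7 had the smallest change of the 41 genes, log2 -0.29 ± 0.12 (adjusted P = 0.0852).

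A few other genes share sequence with a neighbour or a pseudogene, which makes their estimates less certain. The share of words also found in other genes was 31.6% for Usp1, 24.6% for Cenpu, 19.4% for Rfc2, 12.9% for Slbp, 12.8% for Rrm2, 11.4% for Tyms and 10.1% for Wdr76. Where a gene overlaps another on the opposite strand, as Cenpu does Primpol and Rfc2 does Lat2, reads of the pair cannot be told apart unless strand was used in counting, which was not stated.

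**Figure D2:**
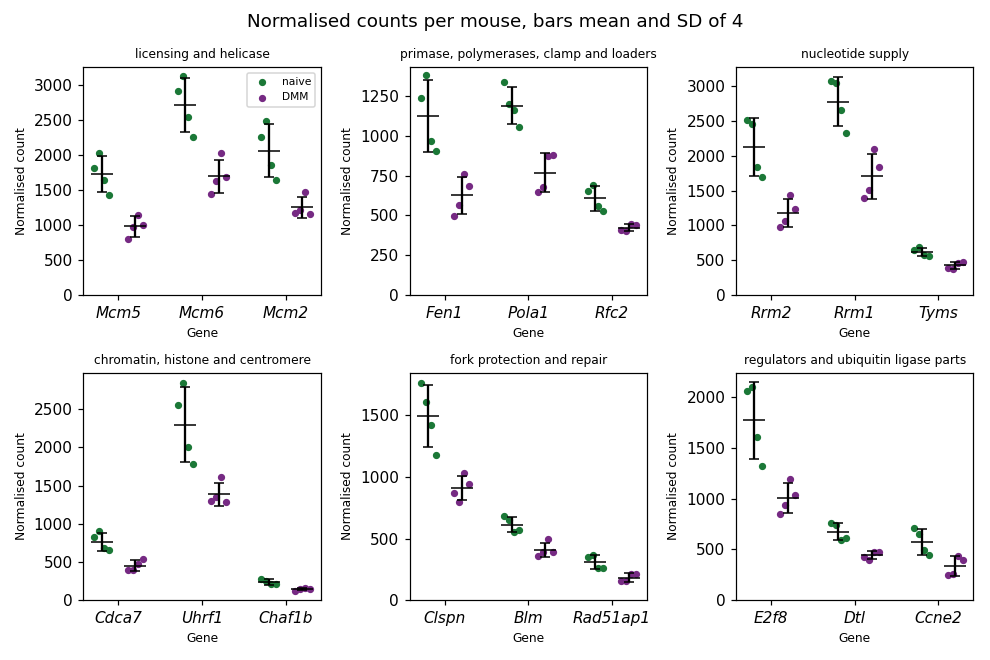
Normalised counts (vertical axis, from 0) of the 3 S phase genes with the smallest adjusted P in each of the 6 roles, with 1 point per mouse in mouse order from left to right and bars for mean ± SD of 4 mice. The naive points lie above the DMM points for all 18 genes, and within the naive group mice 1 and 2 are the highest for most of them.

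The S phase genes were high or low together in the same mice of each group. Summed over the 41 genes, the normalised counts were 46397, 46866, 38205 and 34523 in naive mice 1 to 4 and 22477, 24153, 30664 and 27711 in DMM mice 1 to 4. The lowest naive mouse was thus above the highest DMM mouse. As deviations from the mean of the 8 libraries on the log2 scale, the median gene stood at 0.50, 0.50, 0.21 and 0.07 in the naive mice and at -0.55, -0.39, -0.11 and -0.20 in the DMM mice.

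In normalised counts, the same mice were at the extremes for nearly every gene. Naive mouse 1 was the highest of all 8 mice for 22 genes and naive mouse 2 for the other 19, whereas naive mouse 4 was the lowest naive mouse for 38. DMM mouse 1 was the lowest of all for 28 genes, and DMM mouse 3 was the highest DMM mouse for 28. For 38 genes naive mice 1 and 2 were both above naive mice 3 and 4, and for 34 genes DMM mice 3 and 4 were both above DMM mice 1 and 2. The 5 genes whose groups overlapped were Gins2, Prim1, Dscc1, Tipin and Brip1. The median coefficient of variation over the genes was 14.8% in naive and 14.5% in DMM mice.

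**Figure D3:**
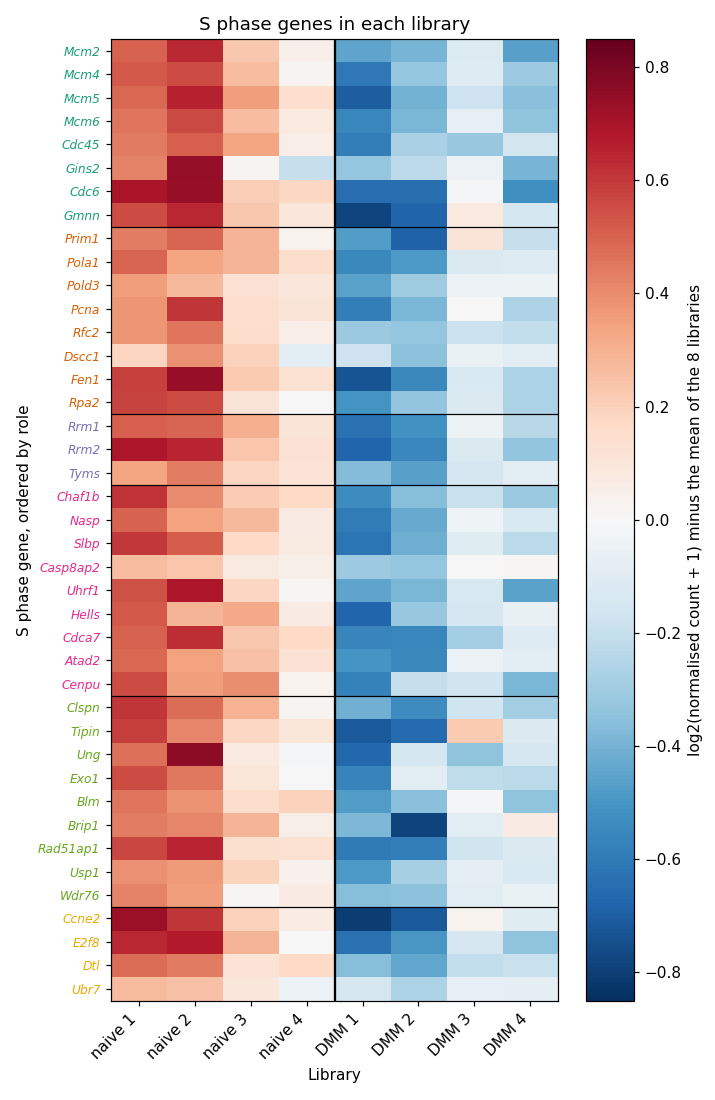
Level of each of the 41 S phase genes (rows, grouped by role) in each of the 8 libraries (columns) as log2(normalised count + 1) minus the mean of the gene over the libraries, red above and blue below that mean. Naive mice 1 and 2 are the reddest columns and DMM mice 1 and 2 the bluest, with medians of 0.50, 0.50, -0.55 and -0.39.

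The number of S phase genes called depended on single mice and on how the libraries were scaled. Leaving out 1 mouse at a time gave 20 to 34 called genes, with 20 without naive mouse 1, 20 without DMM mouse 1 and 34 without naive mouse 4. In all 8 of these fits 19 genes were called. The other 11 called genes (Prim1, Pola1, Pcna, Rpa2, Nasp, Hells, Atad2, Tipin, Ung, Blm and Dtl) missed a threshold in at least 1 of them, and for 8 of these the adjusted P never rose above 0.05, so that only the fold threshold was missed. For the other 3, Prim1, Tipin and Ung, the largest adjusted P in these fits was 0.0551, 0.136 and 0.141. With the total count of each library as its scale, only 7 genes were called (Mcm5, Cdc6, Fen1, Rrm2, Cdca7, Ccne2 and E2f8), against 2.60% of all genes tested called lower on that scale. On that scale 29 genes had an adjusted P of 0.05 or less, the median log2 fold change was -0.48 for the S phase genes and 0.14 for all genes, and all 41 genes were still below 0.

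The most abundant identifier, ENSMUSG00000119584, which was matched to no symbol in the gene names used here, took up different shares of the libraries. It held 10.1%, 17.9%, 15.1% and 16.8% of the counts in naive mice 1 to 4 and 8.65%, 8.4%, 4.31% and 6.97% in DMM mice 1 to 4. When it was left out of the total, a setting chosen after the data were seen, 22 S phase genes were called. Total counts were 12479443 to 16548002 per library and did not differ detectably between the groups (P = 0.4, two-sided exact permutation test). Over the 8 libraries, the mean normalised counts of the S phase genes ran from 87.4 to 2240.7.

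Other genes of the replication machinery were called lower too, though not all of them. Of 52 listed genes that are not among the 41, 24 (46.2%) were called lower and 0 higher, against 5.63% and 7.38% of all genes tested. Their median log2 fold change was -0.53. The smallest adjusted P belonged to Wdhd1, a fork protein that ties polymerase alpha to the helicase (log2 -0.86 ± 0.15, adjusted P = 1.01e-06), followed by the nuclease Dna2 (log2 -0.61 ± 0.12, adjusted P = 5.59e-06), the histone chaperone Asf1b (log2 -0.86 ± 0.17, adjusted P = 1.22e-05) and Lig1, the ligase that joins Okazaki fragments (log2 -0.78 ± 0.15, adjusted P = 2.14e-05). The count fell to 13 without naive mouse 1 and to 7 with total count scaling, where 2.60% of all genes tested were called lower.

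Some regulators of the step from G1 to S passed both thresholds. Among 24 of them 4 (16.7%) were called lower and 0 higher, against 5.63% and 7.38% of all genes tested. Their median log2 fold change was -0.43. The 4 were the factors E2f1 (log2 -0.79 ± 0.19, adjusted P = 0.000584) and E2f2 (log2 -0.68 ± 0.19, adjusted P = 0.00332), the E2F partner Tfdp2 (log2 -0.71 ± 0.18, adjusted P = 0.000894) and the cyclin E1 gene Ccne1 (log2 -0.83 ± 0.21, adjusted P = 0.000825). The number was 8 without naive mouse 4 and 2 with total count scaling, where 2.60% of all genes tested were called lower. Without the fold threshold 14 regulators were lower and 1 higher, against 10.5% and 10.7% of all genes tested. Ccnd2, a D-type cyclin that acts earlier in G1, was singled out after its values were seen, and it went the other way at log2 0.43 ± 0.13 without reaching 1.5 fold (adjusted P = 0.00757).

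Genes of the next stages, G2 and mitosis, were all lower. All 27 were called, against 5.63% of all genes tested called lower. With total count scaling 18 were called, against 2.60% of all genes tested. The median log2 fold change of the 27 was -0.77. They were led by Tacc3 and Nuf2, which act at the spindle and kinetochore (log2 -0.93 ± 0.16 and -0.83 ± 0.15, adjusted P = 1.1e-06 and 4.55e-06), the spindle factor Tpx2 (log2 -0.82 ± 0.15, adjusted P = 5.03e-06) and the mitotic kinase Cdk1 (log2 -0.96 ± 0.18, adjusted P = 6.57e-06). The difference in median between these genes and the S phase genes was not tested.

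The start windows of the lists differed in the letters they held. E2F letters were present in 35.3% of the S phase windows, 29.6% of 54 windows of other replication genes, 34.6% of 26 windows of G1/S regulators, 3.85% of 26 windows of G2 and mitosis genes and 1.84% of all windows. The letters TTTGAA, which match a cell cycle homology region read in genes of G2 and mitosis, were in 17.6% of the S phase windows, 69.2% of the G2 and mitosis windows and 17.9% of all windows. The letters CCAAT, again on either strand, were in 67.6%, 76.9% and 37.4% of the same windows. Among the S phase genes, those with and without the letters had similar medians. The 12 genes with E2F letters had a median log2 fold change of -0.66 with 9 called, the 19 without had -0.68 with 16 called, and the 10 with no matched window had -0.58 with 5 called. Mcm5, Cdc6 and Cdca7, whose stretches are printed above, were among the genes with the largest changes, while Pold3, Casp8ap2 and Ubr7 also held the letters and were not called.

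**Figure D4:**
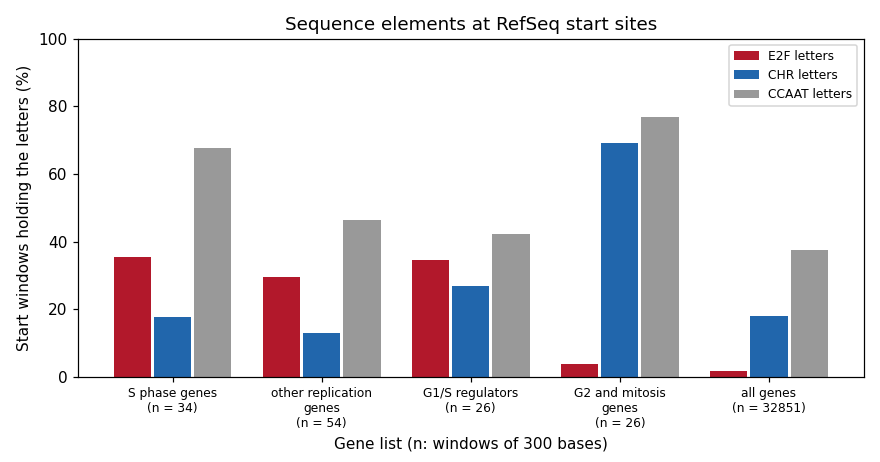
Share of RefSeq start windows (vertical axis, percent; 300 bases each) that hold E2F, cell cycle homology region (CHR) or CCAAT letters on either strand, by gene list, with the number of windows under each list. E2F letters are in 35.3% of S phase windows and 1.84% of all windows, and CHR letters are in 69.2% of G2 and mitosis windows.

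The libraries are labelled as chondrocytes of cartilage, and markers of other cell types were abundant in them too. As a background to the marker calls, 5.63% of all genes tested were called lower and 7.38% higher. Of the chondrocyte markers, 5 of the 10 with an adjusted P were called higher in DMM cartilage, their summed normalised counts ran from 42641 to 72396 in naive and from 93480 to 173953 in DMM mice, and the most abundant per kilobase were Col2a1 and Comp. For each list the 2 genes named as leading had the highest mean level per kilobase over both groups together, whether or not they were called. Within a group the leading pair differed for 3 lists. Chad took the place of Comp and Pdgfra that of Dpt in naive cartilage, and Cd68 took that of C1qb in DMM cartilage. Matn1 was close to 0 in both groups (5.24 ± 4.52 and 0.889 ± 0.688, mean ± SD, n = 4). Markers of early granulocytes, among them Mpo and Elane, were called lower in 5 of 5, with sums of 22944 to 27365 in naive and 8655 to 18893 in DMM mice. Erythroid markers, led by Hba-a2 and Hbb-bs, were called lower in 8 of 9, all but Hbb-bs (adjusted P = 0.0969), with sums of 155764 to 304257 and 80213 to 172234. Leaving out 1 mouse at a time, Hba-a2 was called in 3 of 8 fits, Hbb-bt and Alas2 in 6, and the other called erythroid genes in all 8. Every DMM mouse lay below every naive mouse for 2 of the 9, against 9.86% of all genes tested. Late neutrophil markers, led by S100a9 and S100a8, were called lower in 6 of 7, with sums of 98401 to 157377 and 45142 to 95474.

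Other lists of blood cell markers fell less or not at all. The background for the calls is again 5.63% of all genes tested called lower and 7.38% called higher. No early B lineage marker of 9 was called, with sums of 3224 to 4957 in naive and 3888 to 7685 in DMM mice. Cd79a and Ebf1 led the list. All 9 had a positive log2 fold change, with a median of 0.45. Ebf1 was higher in every DMM mouse than in any naive mouse (log2 0.43 ± 0.15, adjusted P = 0.0207). Its rise was under 1.5 fold. Of the stem and progenitor markers, Gfi1b alone of 5 was called lower. Kit and Flt3 were also lower in every DMM mouse than in any naive mouse (adjusted P = 0.0112 and 0.0442), but by under 1.5 fold. The stem and progenitor sums were 3701 to 4725 in naive and 3289 to 3618 in DMM mice, and Myb and Cd34 led the list. No macrophage marker of 6 was called, with sums of 5974 to 7157 and 5532 to 6844, and C1qa and C1qb led the list. Osteoblast markers, led by Bglap2 and Ibsp, were called higher in 6 of 6 (17942 to 22776 and 34103 to 64654), and fibroblast markers, led by Lum and Dpt, in 4 of 5 (2920 to 5105 and 7597 to 15693). Endothelial markers, led by Pecam1 and Cdh5, had sums of 2451 to 3015 and 3260 to 3738, and 2 of 4 were called higher, Cdh5 and Emcn, while Pecam1 stood at log2 -0.03 ± 0.13 (adjusted P = 0.931).

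**Figure D5:**
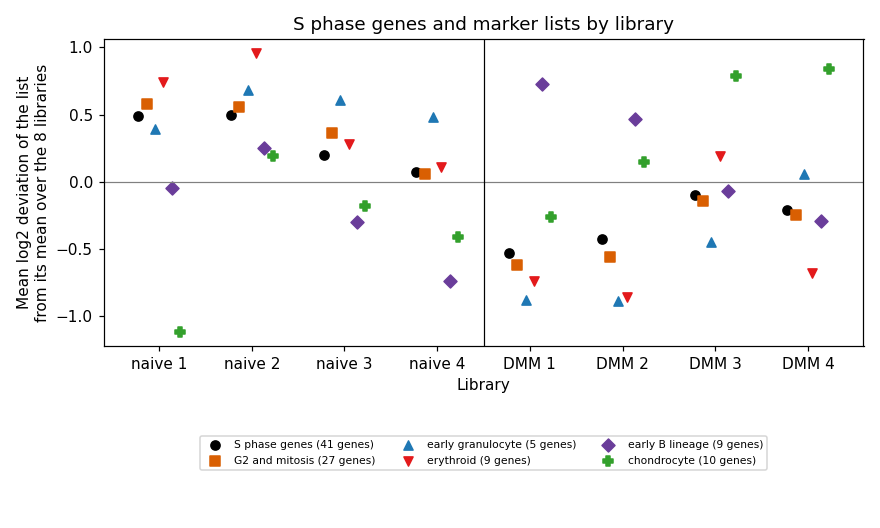
Mean log2 deviation of each gene list from its own mean over the 8 libraries (vertical axis), for the S phase genes, the G2 and mitosis genes and 4 marker lists (symbols), by library. The S phase genes (black) run from 0.50 in naive mouse 2 to -0.53 in DMM mouse 1, next to the G2 and mitosis genes, and the erythroid markers are also highest in naive mouse 2.

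The mice with the highest and lowest S phase levels within a group were partly those with high and low blood cell markers. Naive mice 1 and 2 had the highest erythroid sums (253953 and 304257) and DMM mouse 3 the highest of the DMM mice (172234). Late neutrophil sums were 45142, 63158, 95474 and 91857 in DMM mice 1 to 4, the same order as the S phase sums. In naive mice they were highest in mouse 2 and lowest in mouse 4, as the S phase sums were, but mouse 3 stood above mouse 1. Early granulocyte sums were highest in naive mice 2 and 3 and in DMM mouse 4, and the early B lineage sums of DMM mice 1 and 2 (7013 and 7685) were the highest of all although these mice had the lowest S phase levels. Chondrocyte sums were lowest in naive mouse 1 and highest in DMM mouse 4. The part of these cell types in the lower S phase levels was not tested.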

How the data were processed

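RNA from 8 libraries of medial knee cartilage, 1 per mouse, was compared between 4 naive and 4 DMM mice, grouped by the treatment label. The authors trimmed the reads, pseudo-aligned them with Kallisto and summed transcripts to genes with tximport, and deposited the estimated counts, of which 39.2% are not whole because Kallisto divides reads between transcripts. The methods of the study name GRCm38 (release 103) whereas the processing notes list GRCh38, and the labels and the methods name different library kits. Whether strand was used is not given in the sources used here. Total counts were 12479443 to 16548002 per library.

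The estimated counts were rounded and tested with DESeq2 version 1.42.0 (R version 4.3.3) by its Wald test, using its own size factors and default filters and no covariates, with Benjamini-Hochberg adjustment over all 18707 genes tested. A gene was called at an adjusted p of 0.05 or less and 1.5 fold or more. The S phase genes and the other lists were chosen with earlier results of these data known, so no p was computed over a list. Values of each mouse are given for the 3 genes with the smallest adjusted p in each role and for those with the highest and lowest level per length. Of each companion list the 4 called genes with the smallest adjusted p are named, and of each marker list the 2 most abundant. Of 212 listed genes 211 were matched by symbol, the exception being Lin54.

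The alternatives were edgeR version 4.0.16 (quasi-likelihood), limma version 3.58.1 (voom), TMM factors, total counts, a filter of 10 counts in 4 libraries, no filter, a replicate block, no fold threshold and leaving out each mouse. Shared sequence was measured as the share of 31-base words of the transcripts of a gene that occur in transcripts of other genes (GENCODE annotation of GRCm38). On simulated counts with 100 genes changed 2 fold and 100 changed 1.5 fold, DESeq2 called 72 and 23 of them, and 25 of its 120 calls were of unchanged genes. A call needs an estimate of 1.5 fold or more, so many genes simulated at that fold miss it by construction. The simulation changed a far smaller share of genes than the 13.0% called in these data, so its numbers do not carry over to the S phase calls.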

Additional observations from a re-analysis of the deposited data

Results flagged for a closer look

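One value among the S phase genes stood far from the rest of its group. Cdc6 measured 540.8 normalised counts in DMM mouse 3, against 347.5 to 379.1 in the other 3 DMM mice. The gap to the nearest of them, divided by the range of the group, was 0.837, above Dixon's 95% critical value for 4 samples. Cdc6 was also called lower without that mouse. A test of this kind flags about 1 group in 20 by chance, which is 4.1 of the 82 groups examined here, and 1 was flagged.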

How the results depend on the processing

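All 41 S phase genes kept a negative log2 fold change in every fit that was run. Against 30 called in the report, the count was 28 under the filter of 10 counts, 29 with no filter, 25 each with edgeR and limma-voom, 23 with TMM factors, 22 with total counts that leave out the most abundant identifier (chosen after seeing the data) and 38 without the fold threshold. Total count scaling changed most, giving 7 S phase genes called and a median of -0.48, 7 other replication genes, 2 G1/S regulators, 18 G2 and mitosis genes and 486 genes called lower in the whole table. Without the fold threshold 1965 genes were lower in the whole table, with 14 G1/S regulators lower and 1 higher. Leaving out each mouse in turn gave 20 to 34 S phase genes called, a median of -0.73 to -0.57, 13 to 29 other replication genes, 3 to 8 G1/S regulators, 24 to 27 G2 and mitosis genes, and 772 to 1247 lower and 988 to 1664 higher genes in the whole table. The counts outside 1.5 times the main value were 13 other replication genes without naive mouse 1 and 8 G1/S regulators without naive mouse 4. Why these settings and single mice changed the counts was not tested. The naive and DMM libraries come from different mice, so the replicate numbers do not pair them. The correlations of the deviations of mice with the same number were 0.01, 0.08, -0.18 and 0.1 over 18403 genes. With so few mice these values cannot show whether a batch was shared. With the replicate number as a block 28 S phase genes were called. A gene that was not called may still differ.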
